A study of Mus musculus with 96 samples.

Results

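The 9 genes described here encode the hemidesmosomes and the laminin-binding integrins that hold the epidermis to its basement membrane. They were taken by name from the 22497 genes of the deposited tables, and all 9 were found: Dst, Col17a1, Itga6, Itgb4, Itga3, Itgb1, Lama3, Lamb3 and Plec. The rule used names and no measured value. Every member had a mean level above 1 RPKM (reads scaled to transcript length and to library size) in every genotype, so none was lost to the filter on low values.

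Messenger RNA was measured by sequencing of polyadenylated RNA in back-skin epidermis of 8-week-old female C57BL/6 mice after 156 to 176 h of constant darkness. The 96 libraries fall into 24 groups of 4 mice, made of 4 genotypes sampled at 6 circadian times (CT) that lie 4 h apart. Arntl encodes BMAL1, without which the molecular clock does not run. WT mice carried Arntl wt/wt with K14Cre wt/tg and Syt10-Cre tg/wt. The other 3 genotypes were all Arntl stopFL/stopFL, an allele held off by a stop cassette that Cre recombinase removes. Syt10-Cre is active in the brain's central clock. RERE mice (Arntl restored by both drivers) carried K14Cre tg/wt and Syt10-Cre tg/wt. EpiRE mice (restored in epidermis) carried K14Cre tg/wt and Syt10-Cre wt/wt. BRE mice (restored in brain) carried K14Cre wt/wt and Syt10-Cre tg/wt. BRE was thus the only genotype without K14Cre, and EpiRE the only genotype without Syt10-Cre. In contrasts with BRE or EpiRE, the missing transgene cannot be told apart from the lack of active Arntl at that site. K14Cre uses the promoter of keratin 14, which is active in basal keratinocytes, so other cells of the skin keep the stopped allele unless they arose from such cells.

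Hemidesmosomes are plaques at the base of basal keratinocytes. Inside the cell, dystonin (Dst) and plectin (Plec) tie the plaque to keratin filaments. In the membrane, the integrin of Itga6 and Itgb4 and the transmembrane collagen Col17a1 reach outward to a laminin that contains the chains of Lama3 and Lamb3. The integrin of Itga3 and Itgb1 binds the same laminin outside the plaque and is linked to actin. Loss of these proteins in people or mice causes blistering of the skin, and Col17a1 is also known for its role in the maintenance of epidermal and hair follicle stem cells.

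The library sizes implied by the deposited values ran from 11.1 to 19.9 M reads, with a median of 15.2 M. The member with the fewest reads, Itgb1, had at least 2516 in each library. Arntl messenger RNA was present in all genotypes, with medians over 24 libraries from 3.86 log2 RPKM (BRE) to 4.13 (RERE), and the files do not say which part of the transcript the reads cover. All 5 clock reference genes (Arntl, Npas2, Nr1d1, Dbp and Per2) passed the rhythm test described below in WT and RERE, and 0 of 5 did in EpiRE and BRE (limma), with an unadjusted p below 0.05 for 4 in EpiRE and 0 in BRE. Nr1d1, a direct clock target, ranged from 3.16 to 7.45 log2 RPKM in WT and from 1.65 to 3.21 in BRE, and from 3.56 to 6.69 in EpiRE. Basal and suprabasal keratinocyte markers were abundant in all libraries, and the 6 fibroblast and 4 endothelial markers had genotype means under 1 RPKM. The library EpiRE CT0 replicate 1 lay farther from its group than any other (root mean square distance 0.49 log2 units against a median of 0.284). Leaving it out changed 1 call among the members, named below. The times of EpiRE and BRE rest on the column names of 1 set of tables, since a second set lists the libraries of these genotypes by codes in another order.

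The members differed widely in level. Col17a1 had the highest level, 10.19 ± 0.16 log2 RPKM (SD, n = 96), and Plec followed at 7.08 ± 0.16. Lamb3 had a level of 6.78 ± 0.18 log2 RPKM, Itgb4 of 6.58 ± 0.15 and Itga6 of 6.45 ± 0.15. Itga3 stood at 5.93 ± 0.20 log2 RPKM, Itgb1 at 5.89 ± 0.13, Lama3 at 5.46 ± 0.20 and Dst at 5.11 ± 0.38. Of the neighbours in this order 3 pairs differed by less than the SD of their difference within a library. Itga3 lay 0.04 ± 0.16 above Itgb1 and was the higher in 60 of 96 libraries. Itgb4 lay 0.13 ± 0.17 above Itga6, its partner, and was the higher in 76. Lama3 lay 0.34 ± 0.37 above Dst and was the higher in 77. The subunits of both integrins were thus at near-equal levels per length, while Lamb3 lay 1.36 ± 0.25 log2 units above Lama3 in WT (SD, n = 24). Exonic lengths were inferred from the deposited values as those that give whole reads. They were 10656 bases for Lama3 and 5124 for Lamb3. Transcripts of different length from the same gene are not told apart, and the part of length in this gap was not tested. Dst had the widest spread of the members. Its reads were counted per gene, over an inferred exonic length of 33577 bases, so the epidermal, muscle and neuronal isoforms of dystonin are not told apart.

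Dst (chromosome 1, 33908225 to 34308661, plus strand, mm10) rose and fell over the day more than any other member. In WT its level in the 4 mice of each time was 4.38, 4.35, 4.83 and 4.83 log2 RPKM at CT0, 5.15, 5.34, 5.04 and 4.90 at CT4, and 5.58, 5.38, 5.78 and 5.11 at CT8. It was 5.45, 5.75, 5.58 and 6.00 at CT12, 5.25, 5.56, 4.64 and 4.99 at CT16, and 4.43, 4.73, 5.04 and 5.06 at CT20. All CT12 mice were above all CT0 and CT20 mice. Here and below, overlap between groups of 4 mice describes the values shown. It carries no test and was not counted over all genes. The fitted 24 h cosine had an amplitude (height above the mean) of 0.51 ± 0.07 log2 units (SE), a peak-to-trough ratio of 2.02, and a peak at CT 10.6 ± 0.556 h (limma moderated F test, Benjamini-Hochberg adjusted p = 8.15e-05). Of the genes tested in WT, 2.55% had a larger amplitude. The authors' deposited table of BIOCYCLE gives Dst in WT a q of 0.00291 and a peak at 10.6 h.

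RefSeq (GRCm38.p6) lists 2 transcription starts for Dst in the table used here and 1 for Col17a1, the member with the next largest amplitude. The 250 bases before each start are shown for these genes because they had the largest daily changes. Capitals mark matches of CANNTG, the general E-box hexamer, which are described after the sequences.
Dst promoter 1, chr1:34011345-34011594, plus strand: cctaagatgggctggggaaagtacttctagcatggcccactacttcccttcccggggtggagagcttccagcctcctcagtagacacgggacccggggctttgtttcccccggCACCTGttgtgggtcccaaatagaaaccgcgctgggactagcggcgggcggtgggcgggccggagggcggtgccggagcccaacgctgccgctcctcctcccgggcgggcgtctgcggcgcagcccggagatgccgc
Dst promoter 2, chr1:34160010-34160259, plus strand: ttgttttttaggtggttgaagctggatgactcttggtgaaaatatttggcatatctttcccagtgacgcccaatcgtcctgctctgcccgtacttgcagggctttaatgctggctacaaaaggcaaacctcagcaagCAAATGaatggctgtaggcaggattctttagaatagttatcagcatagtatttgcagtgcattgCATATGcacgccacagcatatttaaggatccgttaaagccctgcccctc
Col17a1 promoter 1, chr19:47692043-47692292, minus strand: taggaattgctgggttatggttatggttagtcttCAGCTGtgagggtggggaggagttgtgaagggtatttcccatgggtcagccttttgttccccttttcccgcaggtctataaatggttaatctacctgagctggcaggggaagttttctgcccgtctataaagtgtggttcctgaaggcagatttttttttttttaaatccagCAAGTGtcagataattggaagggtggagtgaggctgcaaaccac

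Clock proteins are known to act through a few short DNA elements. Both strands were searched in the 8 promoters found for 5 of the members (Dst, Col17a1, Itga3, Itgb1 and Lamb3). None held the E-box CACGTG, which 6.02% of 32841 promoters of the same length hold, or the related CACGTT (3.85%). None held the D-box TTANGTAA (2.06%), the core AGGTCA of nuclear receptor sites (14.0%) or the longer ROR element that contains that core (0.177%). The general hexamer CANNTG, which includes CACGTG, occurred in 7 of the 8, and in 66.2% of all promoters. In the sequences above it reads CACCTG in Dst promoter 1, CAAATG and CATATG in Dst promoter 2, and CAGCTG and CAAGTG in Col17a1. These windows are short, and the counts say only which letters they hold.

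In RERE, with Arntl restored in brain and epidermis, the daily change of Dst had about the same size and time as in WT. Its level at CT0 was 5.05, 4.40, 4.28 and 4.81 log2 RPKM and at CT12 it was 5.25, 5.67, 6.02 and 5.65, with no overlap between these times. The amplitude was 0.49 ± 0.07 and the peak CT 11.4 ± 0.511 h (limma, adjusted p = 5.54e-05). In the test of a difference in rhythm (genotype by cosine and sine interaction), 0 of 9 members differed between RERE and WT, where 0% of genes did. By limma-voom the count was also 0, and 1 member, Col17a1, had an unadjusted p below 0.05. Dst had an adjusted p of 0.951 there by limma.

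In BRE, which carries no Cre for the epidermis, Dst was at 4.71, 4.89, 4.90 and 4.51 log2 RPKM at CT0 and at 5.31, 5.22, 5.56 and 5.46 at CT12. All CT12 mice again lay above all CT0 mice. The amplitude was 0.29 ± 0.05 log2 units, a peak-to-trough ratio of 1.5, with a peak at CT 12.6 ± 0.681 h (limma, adjusted p = 0.0198). This call was lost with no filter on low values (adjusted p = 0.0636), with time as a factor (0.0853), with the spread taken over all 96 libraries (0.0516) and without replicates 1, 2 or 4 (0.0809, 0.134 and 0.18). The amplitude stayed between 0.26 and 0.33 in the fits that left out a replicate. The call was kept without replicate 3 (0.00608) and when any 1 library was left out (largest adjusted p = 0.0478 in 24 fits). The authors' deposited tables give Dst in BRE a q above the 0.05 threshold, 0.566 by BIOCYCLE and 0.104 by JTK_CYCLE. The smaller amplitude in BRE than in WT did not pass the test of the difference (limma adjusted p = 0.104).

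In EpiRE, Dst was spread more evenly over the day. Its level was 5.49, 4.63, 4.73 and 5.13 log2 RPKM at CT0 and 5.34, 5.45, 5.13 and 5.14 at CT12, and these times overlapped. The highest CT0 value, 5.49, is that of the library that stood apart, and the other 3 lay between 4.63 and 5.13. The highest mice were at CT16 (5.12, 5.29, 5.49 and 5.94) and the lowest at CT20 (4.69, 4.78, 4.83 and 4.83) by their means. The amplitude was 0.18 ± 0.09 (limma, adjusted p = 0.523), and 0.23 ± 0.08 without that library (0.356). For the difference in rhythm, 0 of 9 members passed between EpiRE and WT, where 1.57% of genes did, and 0 between RERE and EpiRE, where 1.05% did. Dst was the member with an unadjusted p below 0.05 in both (limma adjusted p = 0.187 and 0.329), and limma-voom called 0 in both. Between RERE and BRE 0 of 9 passed, where 4.19% of genes did. There Dst, Itga6 and Itga3 had an unadjusted p below 0.05, and limma-voom called 0.

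**Figure D1:**
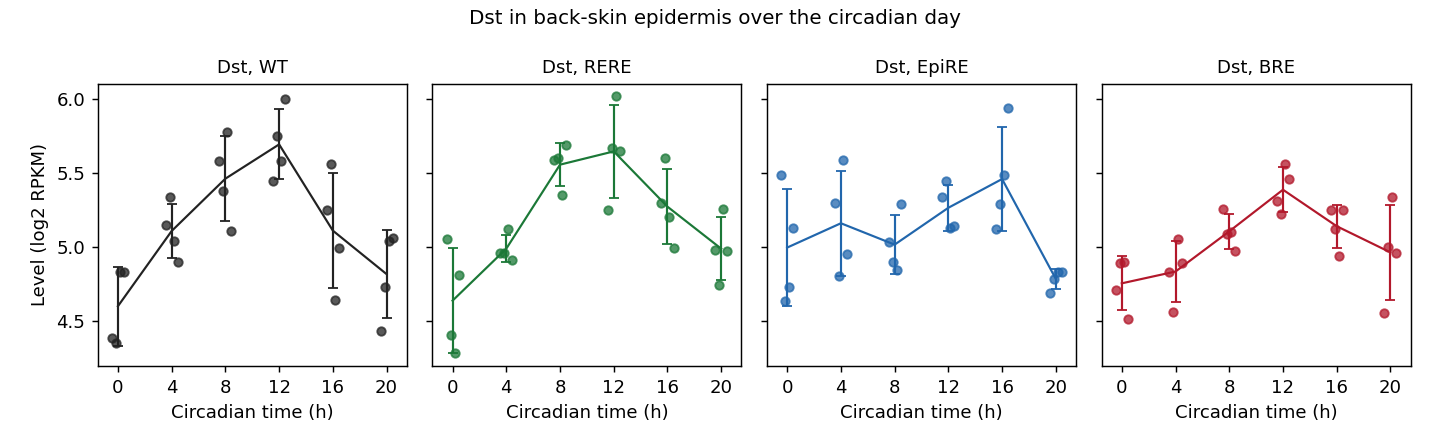
Level of Dst (log2 RPKM) against circadian time in h, 1 panel per genotype, with 1 point per mouse and lines through the means with SD bars (n = 4). The WT and RERE means climb from 4.60 and 4.63 at CT0 to 5.69 and 5.65 at CT12, the BRE means climb from 4.75 to 5.39, and the EpiRE means show no single arch.

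In WT, 6 of the 9 members passed the rhythm test, where 33.1% of the 11087 genes tested did. The calls by limma were Dst, Col17a1, Itgb4, Lamb3, Plec and Itgb1, and without replicate 4 they were Dst and Col17a1 alone. The authors' deposited q in WT was under 0.05 for 3 members by both JTK_CYCLE and BIOCYCLE, namely Dst, Col17a1 and Itgb4. Lamb3, Plec and Itgb1 passed by neither program. In RERE 1 of 9 passed, Dst, where 19.4% of genes did. In EpiRE none passed, and 0% of genes did. Here 2 members, Col17a1 and Itgb1, had an unadjusted p below 0.05, and limma-voom on recovered reads also called 0. In BRE 1 of 9 passed, Dst, where 1.14% of genes did. The median amplitude over the members was 0.145 in WT against 0.119 over all genes tested, and 0.079 against 0.0991 in RERE. It was 0.074 against 0.074 in EpiRE, and 0.102 against 0.0717 in BRE. The fitted WT peaks of the 6 called members lay between CT 3.66 and CT 11.8.

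**Figure D2:**
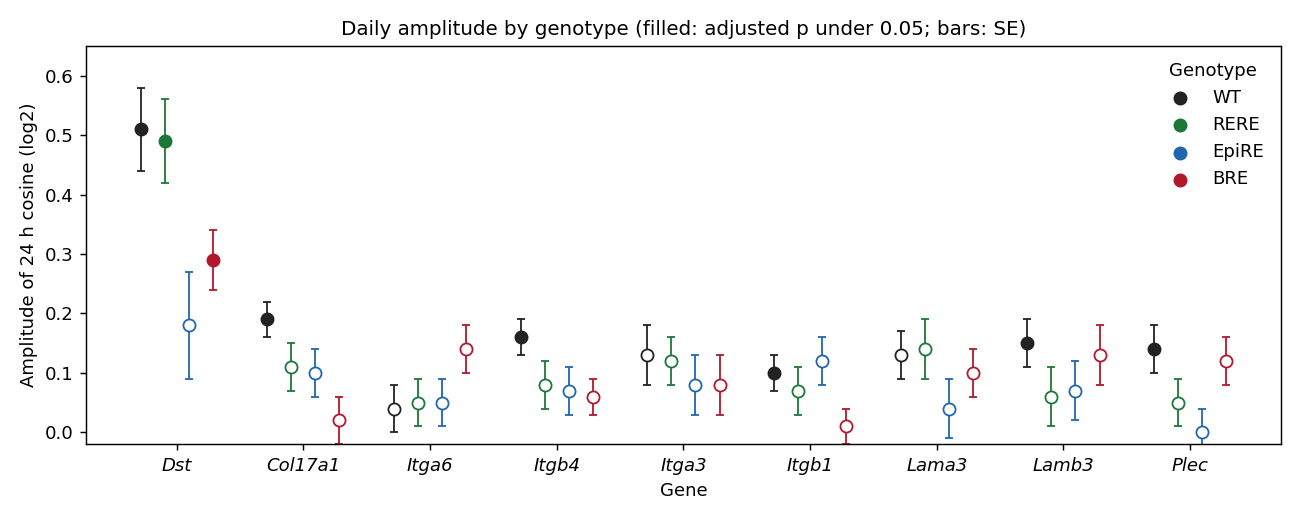
Amplitude of the fitted 24 h cosine (log2 units, with SE bars) for the 9 genes in the 4 genotypes, where filled points passed the limma test at adjusted p under 0.05. Dst stands above the other members at 0.51 in WT and 0.49 in RERE, and the other members lie at 0.19 or below in all genotypes.

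Of the plaque linkers to keratin, Plec (chromosome 15, 76170974 to 76232574, minus strand, overlapping Parp10 on the same strand) had its highest WT level at CT12, with 7.34, 7.37, 7.37 and 7.28 log2 RPKM, and its lowest at CT4, with 6.91, 6.81, 6.98 and 6.85. These times did not overlap, and CT12 was also above all CT20 mice (6.95, 6.87, 6.97 and 7.01). The amplitude was 0.14 ± 0.04 with a peak at CT 11.8 (limma, adjusted p = 0.0275). The call was lost with no filter on low values (0.0597), without replicates 1, 2 or 4 (0.0825, 0.205 and 0.108), and in 3 of 24 fits that left out 1 library, each a CT12 mouse (replicates 1, 2 and 3). Plec had an amplitude of 0.05 ± 0.04 in RERE, 0.00 ± 0.04 in EpiRE and 0.12 ± 0.04 in BRE. None of these passed (adjusted p = 0.624, 0.998 and 0.242 by limma), nor did any difference from WT.

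Col17a1 (chromosome 19, 47646344 to 47692094, minus strand), the transmembrane collagen of the plaque, followed a course like that of Dst in WT with a smaller size. It was at 9.87, 10.03, 9.98 and 10.13 log2 RPKM at CT0, 10.20, 10.29, 10.33 and 10.28 at CT4, and 10.44, 10.26, 10.45 and 10.29 at CT8. It was at 10.28, 10.29, 10.14 and 10.36 at CT12, 10.17, 10.34, 10.13 and 10.13 at CT16, and 9.99, 10.00, 10.04 and 9.92 at CT20. All mice of CT4, CT8 and CT12 lay above all mice of CT0 and CT20. The amplitude was 0.19 ± 0.03 log2 units, a peak-to-trough ratio of 1.3, with a peak at CT 9.06 ± 0.65 h (limma, adjusted p = 0.000445). In the authors' deposited table Col17a1 in WT has a BIOCYCLE q of 0.0185.

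In BRE the daily change of Col17a1 was near 0. The level ran from 9.89 to 10.30 log2 RPKM with time means between 10.04 and 10.18. The amplitude was 0.02 ± 0.04, and the difference in rhythm from WT passed the test (limma adjusted p = 0.037). Of all genes tested in this contrast 5.69% passed, and 2 of the 9 members did. The call for Col17a1 was lost with time as a factor (0.228), with no filter (0.0518), with median-of-ratios scaling (0.0508), and without replicate 1 (0.0698), replicate 2 (0.163), replicate 3 (0.21) or replicate 4 (0.173). In RERE the amplitude was 0.11 ± 0.04 and in EpiRE 0.10 ± 0.04 (adjusted p = 0.165 and 0.373 by limma), and neither difference from WT passed (0.653 and 0.4).

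Itgb4 (chromosome 11, 115974709 to 116008412, plus strand), the integrin subunit that binds plectin inside the cell, was the second member to differ between BRE and WT. In WT it was at 6.80, 6.64, 6.74 and 6.83 log2 RPKM at CT8 and at 6.49, 6.55, 6.26 and 6.29 at CT20, with no overlap. Its WT amplitude was 0.16 ± 0.03 with a peak at CT 6.47 ± 0.773 h (limma, adjusted p = 0.00241, but 0.0604 without replicate 4). In BRE it was at 6.60, 6.43, 6.28 and 6.57 at CT8 and at 6.49, 6.73, 6.62 and 6.45 at CT20, so these times overlapped and the mean was higher at CT20. The BRE amplitude was 0.06 ± 0.03 with a fitted peak at CT 21.2 ± 2.35 h, which did not pass on its own (adjusted p = 0.558). The difference in rhythm had an adjusted p of 0.0117 by limma. It was lost with time as a factor (0.149) and without replicate 2 (0.0568), replicate 3 (0.0985) or replicate 4 (0.107).

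**Figure D3:**
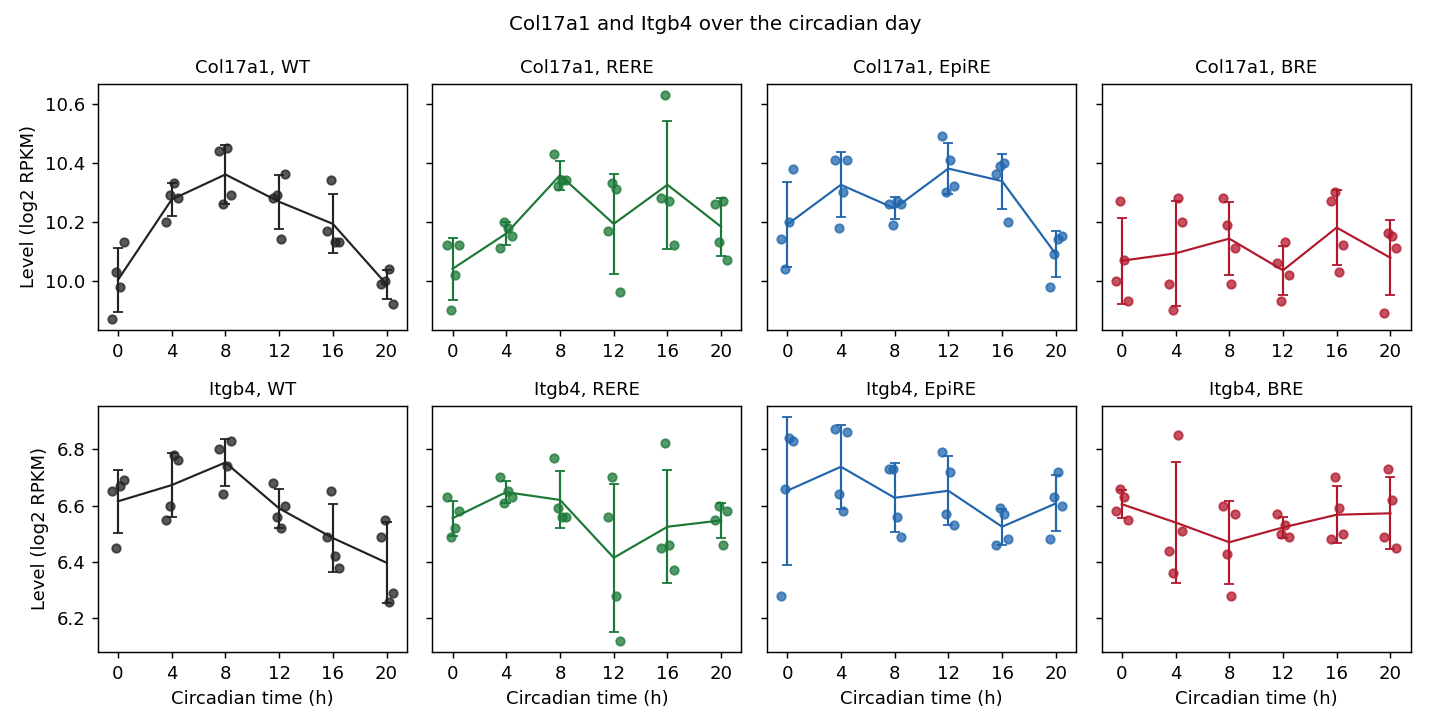
Levels of Col17a1 (top) and Itgb4 (bottom) in log2 RPKM against circadian time in h, 1 panel per genotype, with 1 point per mouse and lines through the means with SD bars (n = 4). In WT the Col17a1 means run from 9.99 to 10.36 and the Itgb4 means from 6.40 to 6.75, whereas in BRE they run from 10.04 to 10.18 and from 6.47 to 6.61.

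Itga6 (chromosome 2, 71745616 to 71858416, plus strand), which pairs with Itgb4 in the plaque, had no called rhythm in WT. The courses of these partners were not tested against each other. The WT time means of Itga6 lay between 6.45 and 6.56 log2 RPKM. Its amplitude was 0.04 ± 0.04 (limma, adjusted p = 0.672), smaller than that of 91.2% of genes tested. In BRE it had an amplitude of 0.14 ± 0.04 with a peak at CT 15.3, which missed the threshold (adjusted p = 0.105) and passed in 1 of 24 fits, that without BRE CT4 replicate 3. The rhythms of BRE and WT were not shown to differ (adjusted p = 0.37).

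The integrin outside the plaque had its fitted WT peak early in the subjective day. Itgb1 (chromosome 8, 128685654 to 128733200, plus strand) was at 6.00, 6.00, 6.06 and 5.95 log2 RPKM at CT0 and at 5.81, 5.89, 5.80 and 5.76 at CT20, with no overlap between these neighbouring times. Its WT amplitude of 0.10 ± 0.03 with a peak at CT 3.66 was the weakest of the calls (limma, adjusted p = 0.0457). That call was lost in 18 of 24 fits that left out 1 library, without replicates 3 or 4 (0.364 and 0.219), with no filter (0.0743), with time as a factor (0.171), with a replicate block (0.0548) and with the level of 6 basal keratinocyte markers as a covariate (0.369). The summed level of those markers in WT ran from 11940 to 18551 RPKM over libraries. In EpiRE Itgb1 had an amplitude of 0.12 ± 0.04 and a peak at CT 2.48 (adjusted p = 0.317), and it was called there only with time as a factor. Itga3 (chromosome 11, 95044474 to 95076801, minus strand) had an amplitude of 0.13 ± 0.05 in WT (adjusted p = 0.0637) and of 0.12 ± 0.04 in RERE (0.0715) by limma, with fitted peaks at CT 4.68 and CT 0.31. Without replicate 2 it was called in RERE.

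The fitted WT peaks of the laminin chains lay apart, a difference that was not tested. Lamb3 (chromosome 1, 193207699 to 193343878, plus strand, with Hsd11b1 and G0s2 on the other strand within it) was at 6.84, 6.72, 6.86 and 6.93 log2 RPKM at CT8 and at 6.50, 6.60, 6.57 and 6.38 at CT20, with no overlap. Its amplitude was 0.15 ± 0.04 with a peak at CT 8.29 ± 0.961 h (limma, adjusted p = 0.0125). The call was lost with time as a factor (0.0695) and without replicate 4 (0.191). Lama3 (chromosome 18, 12333819 to 12583013, plus strand) had its highest WT time mean at CT4, with 5.62, 5.55, 5.59 and 5.45, and its lowest at CT12, with 5.12, 5.25, 5.13 and 5.40. All CT4 mice lay above all CT12 mice. Its amplitude of 0.13 ± 0.04 and peak at CT 3.68 missed the threshold (adjusted p = 0.0533 by limma). It was called in 5 of 24 fits that left out 1 library, as was Itga3, and the number of members called in WT ran from 4 to 7 over these fits.

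Of a list of 25 further hemidesmosome and basement membrane zone genes 19 were tested. The list also holds Eppk1 and the keratins Krt5 and Krt14, which are basal markers here as well. By limma 12 of 19 passed the rhythm test in WT (33.1% of all genes) and 6 of 19 in RERE (19.4% of all genes). In EpiRE (0% of all genes) and BRE (1.14%) 0 passed, with an unadjusted p below 0.05 for 5 and 6 of them. The list's median amplitude in WT was 0.188 against 0.119 over all genes tested. Col4a2 and Col4a1, the paired chains of the most common type IV collagen, had WT amplitudes of 0.34 ± 0.05 and 0.30 ± 0.07 with peaks at CT 6.2 and CT 4.37 (limma, adjusted p = 0.000125 and 0.00435). Col7a1, the collagen of the anchoring fibrils below the plaque, had 0.21 ± 0.03 with a peak at CT 6.13 (0.00028). Col4a6, a type IV chain of the epidermal basement membrane, had 0.25 ± 0.04 with a peak at CT 9.35 (0.00036). Lama5, Lamb2, Lamc1, Agrn, Col4a5, Bmp1 and Sparc were also among those called, with amplitudes of 0.13 to 0.22. Between BRE and WT 2 of the 19 differed in rhythm, where 5.69% of all genes did. They were Lamb2 and Col4a2 (limma adjusted p = 0.0179 and 0.0462), and alternative fits were not examined for them.

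The second question was whether the mean level over the day differed between genotypes. Against WT, 0 of 9 members differed in RERE, where 2.14% of genes did (0.787% higher and 1.35% lower), and 0 in EpiRE, where 2.23% did (0.931% higher and 1.3% lower; limma with time as a factor). At an unadjusted p below 0.05 there was 1 member in each, Itgb1 in RERE and Col17a1 in EpiRE, and limma-voom called 0 in both. The 95% intervals of the RERE minus WT difference lay within -0.16 and 0.19 log2 units for all members, and those of EpiRE minus WT within -0.20 and 0.16. RERE and EpiRE did not differ in any member either, where 0.00906% of genes did. There Itga3 and Itgb1 had an unadjusted p below 0.05, and limma-voom called 0.

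BRE differed from WT in 4 of 9 members, where 36.9% of 11016 genes did, 12.5% higher and 24.4% lower. Lama3, Itga3 and Lamb3 rose and Itga6 fell, a share of members near that of all genes. With median-of-ratios scaling 51% of all calls were higher, against 34% here, and all 4 members kept their calls under it, with Itgb1 called as well. The median difference over all genes was -0.0455 log2 units, and over the members 0.02.

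Lama3 had a median over 24 libraries of 5.35 log2 RPKM in WT (lowest 5.12, highest 5.62) and of 5.6 in BRE (lowest 5.17, highest 5.87). The BRE mean was the higher at 6 of 6 times, and at 3 times the groups of 4 mice did not overlap. The difference was 0.23 ± 0.04 log2 units (SE), a fold of 1.17 (limma, adjusted p = 4.89e-05). Itga3 had a median of 5.91 in WT (5.56 to 6.33) and of 6.08 in BRE (5.56 to 6.36), and its BRE mean was the higher at 5 of 6 times. It rose by 0.19 ± 0.05, a fold of 1.14 (adjusted p = 0.00244).

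Lamb3 had a median of 6.72 in WT (6.38 to 7.03) and of 6.89 in BRE (6.50 to 7.12), with the BRE mean the higher at 4 of 6 times. It rose by 0.13 ± 0.05, a fold of 1.10 (limma, adjusted p = 0.026), a call lost without replicate 2 (0.0988) or replicate 4 (0.104). Itga6 had a median of 6.51 in WT (6.26 to 6.77) and of 6.37 in BRE (5.94 to 6.62), with the BRE mean the lower at 6 of 6 times. It fell by 0.16 on the log2 scale, a fold of 0.895 (limma, SE 0.04, adjusted p = 0.00194). The excess of Itga6 over Itga3 within a library was 0.64 ± 0.16 log2 units in WT and 0.29 ± 0.15 in BRE (SD, n = 24). Dst, Col17a1, Itgb4, Itgb1 and Plec did not pass, with differences between -0.10 and 0.04.

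**Figure D4:**
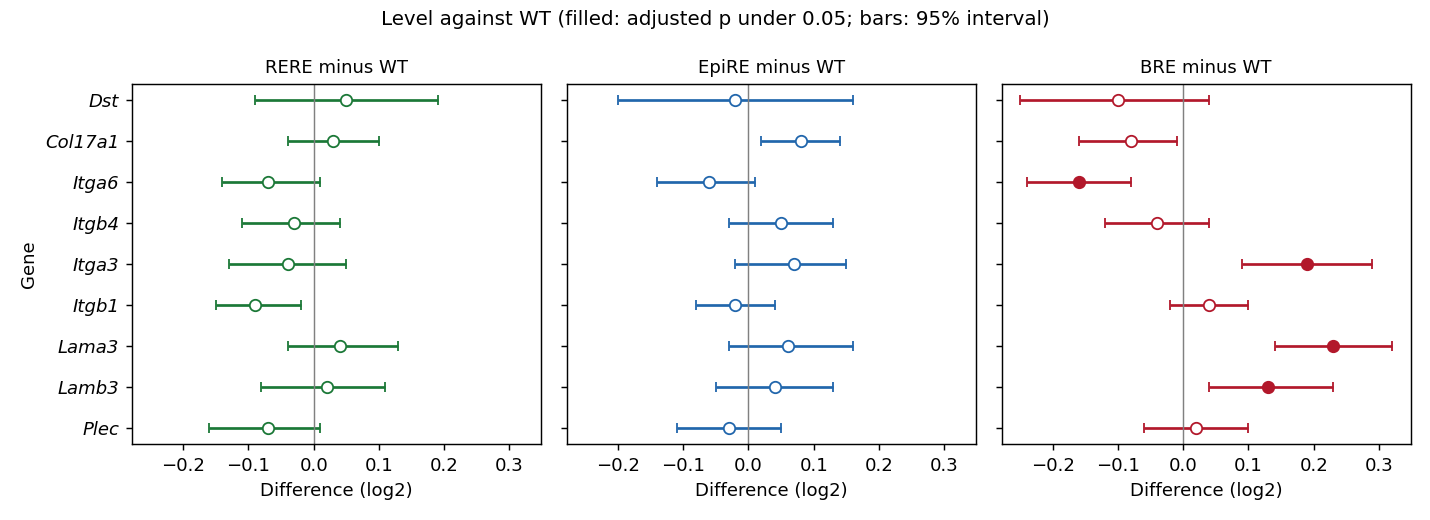
Difference in mean level over the day (log2 units) of RERE, EpiRE and BRE from WT for the 9 genes, with 95% intervals, where filled points passed the limma test at adjusted p under 0.05. Lama3, Itga3 and Lamb3 lie to the right of 0 in BRE at 0.23, 0.19 and 0.13, Itga6 lies to the left at -0.16, and no point is filled in RERE or EpiRE.

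Markers of other layers moved in the same contrast, and in whole epidermis fewer cells of a type cannot be told apart from less RNA per cell. Of 8 suprabasal keratinocyte markers 7 were higher in BRE than in WT, among them Krt10 (0.35 ± 0.06) and Ivl (0.67 ± 0.13), and their summed level ran from 9318 to 15447 RPKM in WT and from 11700 to 19442 in BRE. Of 6 basal markers Krt15 was lower by 0.17 and Igfbp3 was higher (0.20 ± 0.05) by limma. In a fit with the mean of the suprabasal markers as a covariate, added after the data were seen, Lama3 differed by 0.28 ± 0.06, Itga3 by 0.29 ± 0.06 and Lamb3 by 0.27 ± 0.06, and the 3 calls were kept. Itgb1 was also called higher in that fit. Itga6 had -0.06 ± 0.05 there and lost its call (adjusted p = 0.507). Of 4 hair follicle markers tested 2 were called, both lower, Lhx2 (-0.94 ± 0.13) and Sox9 (-0.27 ± 0.09). In EpiRE against WT 3 of 4 were called lower, where 2.23% of all genes differed. Of the T cell markers 3 of 3 tested were called, with Cd3e (-0.36 ± 0.13) and Cd3g (-0.33 ± 0.11) lower and Thy1 higher (0.64 ± 0.14). Both melanocyte markers tested were lower, Dct (-0.66 ± 0.24) and Pmel (-0.47 ± 0.09), as was Cd74 of the Langerhans and myeloid list (-0.34 ± 0.13). Of 4 sebaceous gland markers Elovl5 was lower (-0.37 ± 0.05) and Scd1 higher (0.18 ± 0.07). The part of these cell types in the result was not tested.

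RERE and BRE differed in 4 members, where 27.5% of genes did, 17.4% higher in RERE and 10.1% lower (limma). Of all calls 63.2% were higher in RERE, and 45.8% with median-of-ratios scaling. Itga3 (-0.23 ± 0.05, adjusted p = 0.000545), Lama3 (-0.19 ± 0.05, 0.004) and Itgb1 (-0.13 ± 0.03, 0.00122) were lower in RERE. The Lama3 call was lost without replicate 2 (0.0653) and the Itgb1 call without replicate 4 (0.0529). Col17a1 was higher in RERE (0.11 ± 0.04, adjusted p = 0.026), a call lost with median-of-ratios scaling (0.107), with the suprabasal covariate (0.705) and without replicates 1, 2 or 3 (0.137, 0.052 and 0.089). EpiRE and BRE differed in 3 members, where 34.0% of genes did, 22.9% higher in EpiRE and 11.1% lower. Of all calls 67.4% were higher in EpiRE, and 47.2% with median-of-ratios scaling. Col17a1 was higher in EpiRE (0.16 ± 0.04, adjusted p = 0.000542, but 0.401 with the suprabasal covariate). Lama3 (-0.17 ± 0.04, 0.00338) and Itga3 (-0.13 ± 0.05, 0.042) were lower. The Lama3 call was lost without replicates 2 or 3 (0.0688 and 0.0562). The Itga3 call was lost without replicates 2, 3 or 4 (0.167, 0.193 and 0.132), with no time term (0.0562) and without the library that stood apart (0.0562). These contrasts share the BRE libraries with each other and with the contrast to WT.

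The further hemidesmosome and basement membrane zone genes also had mixed directions in BRE against WT. Of 19 tested 7 were higher and 2 lower, where 12.5% and 24.4% of all genes were, with a median difference of 0.0817 against -0.0455 over all genes (limma). The higher share of all calls, 34%, was 51% with median-of-ratios scaling. Among those higher were Col7a1 (0.43 ± 0.04, adjusted p = 2.29e-10), Col4a5 (0.35 ± 0.05), Lamc1 (0.34 ± 0.04) and Sparc (0.32 ± 0.07), with Dag1 and Bmp1 at 0.14 each. Col4a2 (-0.36 ± 0.06) and Col4a1 (-0.28 ± 0.09) were lower. Col4a2 was also lower than WT in RERE (-0.24 ± 0.05) and EpiRE (-0.24 ± 0.06), and Col7a1 was also higher in EpiRE (0.18 ± 0.04).

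Levels also varied between mice of one group, and this was compared between members after subtraction of the 24 group means. Of 36 pairs of members 34 had a positive Pearson's r over the 96 libraries, with a median of 0.44. A permutation test within groups was passed by 24 pairs (100000 permutations, two-sided, adjusted over the 36). Pairs of other genes were not measured, so these counts have no share of all genes beside them. Dst and Lama3 moved together most closely (r = 0.71, Spearman's rho = 0.70, permutation adjusted p = 5.14e-05 for both, from the smallest p these permutations can give, 1e-05). Within genotypes this r was lowest in EpiRE (0.61) and otherwise 0.75 (WT), 0.77 (RERE) and 0.79 (BRE), and it was 0.69 without the 2 libraries farthest from the median of Dst.

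Lamb3 and Itgb4 formed another close pair (r = 0.68, rho = 0.55, r = 0.63 without 2 libraries), with r from 0.56 to 0.78 within genotypes. Their permutation adjusted p was 5.14e-05 for both measures. Partners in a complex were not always the closest. Lama3 and Lamb3, chains of 1 laminin, had r = 0.00 (rho = 0.01, permutation adjusted p = 0.997 and 0.961), with r from -0.18 to -0.15 in WT, RERE and EpiRE and 0.49 in BRE. Itga6 and Itgb4 had r = 0.44 (rho = 0.39, permutation adjusted p = 0.00082 and 0.00206). This was 0.36 without 2 libraries, and within genotypes it was 0.68 (BRE), 0.56 (WT), 0.52 (RERE) and -0.03 (EpiRE). Without the library that stood apart, the value in EpiRE was 0.29 (n = 23) and that over all libraries 0.53 (n = 95), and no test compared genotypes. The same library lowered the EpiRE value of Lama3 with Lamb3, which was 0.01 without it, and raised that of Lamb3 with Itgb4, which was 0.49 without it.

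Other measures of a library varied beside these. All 9 members had a negative r with the mean of the suprabasal markers (from -0.56 to -0.22), and 8 of the 9 passed (permutation test, adjusted over 36 relations). Other genes were not put to this test, so the counts here have no share of all genes beside them. With the median of the 3275 genes of over 5 kb, 4 members passed, Dst and Lama3 with the highest values (r = 0.42 and 0.44, rho = 0.37 and 0.34, permutation adjusted p = 0.00224 and 0.00714 for r and 0.0076 and 0.0158 for rho). Without the 2 farthest libraries r was 0.38 and 0.35. The others were Col17a1 (r = 0.35, rho = 0.28, permutation adjusted p = 0.00714 and 0.0311) and Plec (r = 0.31, rho = 0.28, 0.0439 and 0.04). With the mean of the hair follicle markers Lama3 had r = -0.53 (rho = -0.47, permutation adjusted p = 0.000216 and 0.000432) and Dst r = -0.26 (rho = -0.25, 0.0439 and 0.0618). With the mean of the basal markers 4 members passed, in both directions. Dst had r = -0.34 (rho = -0.33, permutation adjusted p = 0.01 and 0.0158). Itgb1 (r = 0.58, permutation adjusted p = 0.00012), Itga3 (0.33, 0.00224) and Itgb4 (0.29, 0.0113) had positive values. The part of gene length and of cell layers in the shared variation was not tested. For the daily rhythm, 39.6% of genes of at least 5 kb passed in WT against 33.1% of all.

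**Figure D5:**
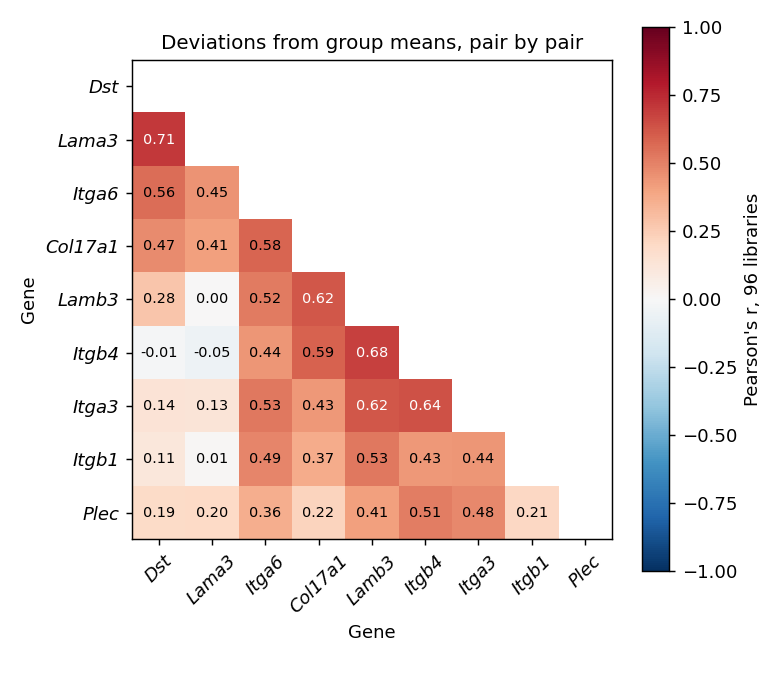
Pearson's r of each pair of the 9 genes over 96 libraries after subtraction of the 24 group means, with colour from blue (-1) to red (1). Dst and Lama3 stand out at 0.71, and a block of Lamb3, Itgb4 and Itga3 holds values from 0.62 to 0.68.

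The genes whose course was most like that of Dst were sought over the 24 group means among 11019 genes. The 5 with the highest Pearson's r were Shmt1 (0.917), a folate enzyme, Ptprz1 (0.906), a receptor phosphatase, Pfkfb2 (0.902), a regulator of glycolysis, Fcho2 (0.896), an endocytic adaptor, and Zcchc8 (0.896), a nuclear RNA exosome adaptor. The 3 with the lowest were Vcp (-0.907), an unfoldase, Rasa3 (-0.904), a GTPase activator, and Psmd1 (-0.902), a proteasome subunit. For Col17a1 the highest were Slc6a6 (0.876), the taurine transporter, Ldb1 (0.862), Kcnj15 (0.861), Unc5b (0.847) and Svil (0.84). For the mean of the 9 standardised members they were Vegfd (0.734), Eps8l2 (0.725), Dlk2 (0.723), Cmip (0.716) and Slc6a4 (0.685). These values rank genes by likeness and carry no test, and no member was among the candidates.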

How the data were processed

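Polyadenylated RNA of 96 epidermis libraries was sequenced with a strand-marking kit and adaptors with molecular identifiers, per the labels. The submitters' processing notes name featureCounts 1.6.0, edgeR, HISAT2 2.2.1, Trimmomatic 0.36 and SAMtools 1.3.1, and the build mm10. No label or header states if duplicates were removed or strand was used in counting. Per library, the authors deposited log2 RPKM values. The authors' deposited p-values and q-values, periods and peak times of JTK_CYCLE and BIOCYCLE are quoted only where named. A further 96 per-library columns, in the JTK_CYCLE tables, carry codes and were not used.

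For 99.98% of genes the deposited log2 RPKM values came out as whole reads, with 99.98% of values within 0.1 read of a whole number and a prior of 0.25 reads. They gave the depth, the exonic lengths and the limma-voom alternative. Each genotype has a table of its own. In all 4 tables the recovered reads summed to 94.5 to 96.4% of the library size that the values imply, and levels were compared across tables on that basis.

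Tests used limma 3.58.1 in R 4.3.3 on the genes whose mean over the libraries compared reached 1 RPKM. Rhythm was the moderated F test of a 24 h cosine and sine within a genotype. Differential rhythm was their interaction with genotype. Level was the genotype term beside time as a factor. Tests were two-sided or F tests without a side, and Benjamini-Hochberg adjusted p under 0.05 was called. Scripts were tested on simulated data. The 4 mice of a group are biological replicates per the labels, so p-values are over animals. Gene positions are from GENCODE M21, and promoters from RefSeq.

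Named are all 9 members, the further hemidesmosome and basement membrane zone list, the focal adhesion list, cell type markers and the genes nearest in pattern. The members and lists were chosen with earlier results of these data known. Pathway and marker genes were named as examples among those called. Some results for single genes of these lists are not reported here. Alternatives covered filters, scaling, a pseudocount, limma-voom, replicate block, marker covariates, time terms, pooled spread and left-out replicates or libraries. Leaving out single libraries and the suprabasal covariate were chosen after seeing the data.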

Additional observations from a re-analysis of the deposited data

Results flagged for a closer look

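Of the 216 groups of 4 mice (9 genes in 24 groups), 8 (3.7%) held a mouse far from the other 3 by Dixon's criterion, and chance flags about 5%. In RERE, Col17a1 at CT8 had a mouse at 10.43 log2 RPKM against 10.32 to 10.34, and Itgb4 at CT8 had one at 6.77 against 6.56 to 6.59. Both were replicate 1. Also in RERE, Itga6 at CT0 had one at 6.21 against 6.53 to 6.56, and Lama3 at CT20 had one at 5.68 against 5.35 to 5.40. In EpiRE, Itga3 had a mouse at 6.14 against 5.89 to 5.92 at CT12 and at 5.94 against 5.85 to 5.86 at CT16, and Plec at CT4 had one at 6.76 against 7.15 to 7.19. In BRE, Itgb1 at CT12 had one at 5.88 against 6.00 to 6.02.

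For 2 of 9 members the daily course differed between BRE and WT by the interaction test of limma, where 5.69% of genes did. The adjusted p was 0.037 for Col17a1, with amplitudes of 0.02 and 0.19, and 0.0117 for Itgb4, with amplitudes of 0.06 and 0.16. Both calls were lost with time as a factor, and the count ran from 0 to 2 when a replicate number was left out.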

How the results depend on the processing

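The counts of called members were compared over 202 alternatives, of which 21 moved the count by over 1.5 times. Without any filter on low values the count was 0 for rhythm in BRE, 1 for differential rhythm BRE against WT, 1 for level RERE against WT and 1 for level EpiRE against WT. With time as a factor it was 1 for rhythm in EpiRE, 0 for rhythm in BRE and 0 for differential rhythm BRE against WT. Median-of-ratios scaling gave 1 for that differential rhythm and 5 for level EpiRE against BRE. The spread over all 96 libraries gave 0 for rhythm in BRE. Without 1 replicate number the counts ran from 2 to 6 for rhythm in WT, 1 to 2 in RERE and 0 to 1 in BRE. They ran from 0 to 2 for differential rhythm BRE against WT, 0 to 1 for level RERE against WT and 1 to 4 for level EpiRE against BRE. Leaving out replicates leaves fewer mice, and the cause of the other changes was not tested. The level counts of BRE against WT and RERE against BRE stayed between 3 and 5 under all 14 alternatives each. The amplitude difference of Dst between RERE and WT, -0.02, was 0.1 without replicate 1 and -0.1 without replicate 3, and was not called in either. With a replicate block the counts of called members were 5 for rhythm in WT, where Itgb1 lost its call (adjusted p = 0.0548), and 4 for level BRE against WT, and no other count of members changed. Same-numbered libraries of different groups did not deviate together on average (mean correlation 0.004 against -0.001 for other numbers). Pairing limited to some of the groups was not tested. The least-read member had 2516 reads or more in each library.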

Other observations

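The list of 20 focal adhesion genes and other integrins, of which 17 or 18 were tested per comparison, was also measured. In WT 5 of 18 passed the rhythm test by limma, where 33.1% of genes did, and the median amplitude was 0.0845 against 0.119 over all genes. Zyx, a focal adhesion LIM protein, had 0.31 ± 0.05 with a peak at CT 4.7, and Src and Pxn peaked at CT 4.86 and CT 5.55. Vcl, which links talin to actin, peaked at CT 20.3 (0.19 ± 0.04), and Itgav at CT 14.3 (0.13 ± 0.03). Between BRE and WT 1 of 17 differed in rhythm, a share near the 5.69% of all genes. It was Zyx (adjusted p = 0.018 by limma, amplitude difference -0.26).

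In level, 5 of 17 were higher and 2 lower in BRE than in WT by limma, where 36.9% of all genes differed (12.5% higher and 24.4% lower). The 7 calls are thus a share near that of all genes. Parva (0.25 ± 0.06), Itga2 (0.22 ± 0.06), Zyx (0.16 ± 0.05), Itgb5 (0.14 ± 0.03) and Itgav (0.12 ± 0.03) were higher, and Ilk and Pxn were lower (-0.12 each). Actn1, an actin crosslinker, was lower than WT in RERE (-0.26 ± 0.07) and in EpiRE (-0.23 ± 0.05).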
